A study of Mus musculus with 10 samples.

Results

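Sertoli cells taken from mouse testes 7 days after birth were compared between Amh-Rnf20-/- mice and Rnf20 Flox/Flox controls by RNA sequencing. The 4 samples were chosen by their labels, 2 from each genotype, out of 10 in the series, and no measured value entered the choice. All 17816 genes of their table were kept in view, and 12880 of them passed a filter on low values and were tested. In the Amh-Rnf20-/- mice, Cre recombinase driven by the Amh promoter, which is active in Sertoli cells, removes the part of Rnf20 that lies between loxP sites. The controls carry the same floxed alleles without Cre, although the labels call them wild type. The titles of the 4 samples and the study's methods give day 7, while the growth protocol in the labels speaks of adult tissue. No group here carried Amh-Cre without the floxed alleles. The cells were freed with collagenase and trypsin, passaged several times in medium with serum, and used as adherent cultures, so that cells of the tubule wall and the interstitium could be carried along. The study's methods speak of 3 individuals per group, while 2 samples per group were analysed here, and nothing states whether a sample was 1 animal or a pool.

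RNF20 and its partner RNF40 form the E3 ligase that attaches a single ubiquitin to histone H2B in the body of transcribed genes, a mark associated with the passage of RNA polymerase II through chromatin. Sertoli cells are the somatic cells of the seminiferous tubule. They hold the germ cells, secrete growth factors and hormones such as anti-Müllerian hormone and inhibin, and form the blood-testis barrier with tight junctions in which claudin 11 is a main component. Around each tubule lie peritubular myoid cells, contractile cells rich in smooth muscle actin, and between the tubules lie Leydig cells, fibroblasts, macrophages and vessels.

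Levels are given as FPKM, fragment counts divided by gene length and by library size, as the authors deposited them. Fold changes are log2 values of Amh-Rnf20-/- over Rnf20 Flox/Flox from edgeR's quasi-likelihood test with their standard errors (SE), and adjusted p-values are Benjamini-Hochberg values over the 12880 genes. Depth was even, between 17477268 and 17705347 estimated counts per sample.

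The targeted gene, Rnf20 on chromosome 4 of GRCm38.p6 (49632005 to 49656887), had an FPKM of 16.6 and 16.0 in the controls against 10.3 and 12.6 in the Amh-Rnf20-/- pair. Both Amh-Rnf20-/- samples were below both controls, and neither was near 0. The log2 fold change was −0.49 (SE 0.12, n = 2 per group, adjusted p = 0.222 by edgeR). These counts sum reads over the whole gene, so transcripts with and without the floxed part were not separated. Rnf40, which encodes the partner ligase, had an FPKM of 19.5 and 19.9 in the controls against 19.7 and 20.3 in the Amh-Rnf20-/- pair, a difference within about 0.1 on the log2 scale. A list of 35 genes that write, remove or work beside ubiquitinated H2B was followed, of which 32 were tested. Their median log2 fold change was 0.00, from −0.49 for Rnf20 itself to 0.34, and the median over all genes tested was also 0.00. The E2 enzyme genes Ube2a and Ube2b, the deubiquitinase gene Usp22 and the PAF complex genes Paf1, Cdc73 and Leo1 had log2 fold changes between −0.15 and 0.13, with SEs of 0.08 to 0.11. Dot1l, the methyltransferase of histone H3 lysine 79 that ubiquitinated H2B stimulates, had the smallest p-value of the list after Rnf20, with an FPKM of 30.0 and 31.1 in the controls against 25.1 and 25.5 in the Amh-Rnf20-/- pair. Its log2 fold change was −0.24 (SE 0.07, adjusted p = 0.270 by edgeR).

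No gene of the 12880 had an adjusted p-value under 0.05 by edgeR's quasi-likelihood test, a called share of 0%, and the smallest was 0.0961. At an unadjusted p-value under 0.05, 1097 genes (8.52%) stood higher in the Amh-Rnf20-/- pair and 900 (6.99%) stood lower. DESeq2, run on the same counts as an alternative, called 388 genes higher (3.07%) and 193 lower (1.53%) at an adjusted p-value under 0.05. These shares are the background for the DESeq2 calls in each list below. The 2 tests thus gave different answers to the same question, and most genes named below are given with their values in all samples. Without a test, both Amh-Rnf20-/- samples lay above both controls in 3192 genes (24.8%) and below both in 3374 genes (26.2%). The nearest samples of the groups were more than 2-fold apart in 131 genes that were higher (1.02%) and in 38 that were lower (0.295%).

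The 2 Amh-Rnf20-/- samples differed in strength. With the Rnf20 Flox/Flox samples paired off so that each Amh-Rnf20-/- sample had a control of its own, 706 genes were more than 2-fold higher and 511 more than 2-fold lower in the first, against 267 and 156 in the second. With the controls exchanged, the numbers were 704 and 547 in the first and 256 and 180 in the second. The controls themselves were more than 2-fold apart in 122 genes. The genes that were higher were shared more than those that were lower. Of the 267 higher genes in the second sample, 182 were also more than 2-fold higher in the first, 68.2% of the second list and 25.8% of the first. Of the 156 lower genes, 56 were shared, 35.9% of the second list and 10.96% of the first. In the pairing that gave these counts, most unshared genes fell short of the threshold. The higher genes of the first sample had a median log2 difference of 0.53 in the second, and its lower genes one of −0.46. More than 2-fold the other way in the second were 17 of these higher genes and 8 of the lower. Taken alone against both controls by edgeR, on the assumption that a lone sample varies as the controls do, the first sample had 2711 genes higher (21.0%) and 2425 lower (18.8%) at an adjusted p-value under 0.05, and the second had 1255 (9.74%) and 1502 (11.7%). So the absence of calls in the comparison of the groups came with a wide spread between the Amh-Rnf20-/- samples, whose log2 values differed from each other with a standard deviation of 0.55 over genes, against 0.25 between the controls.

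**Figure D1:**
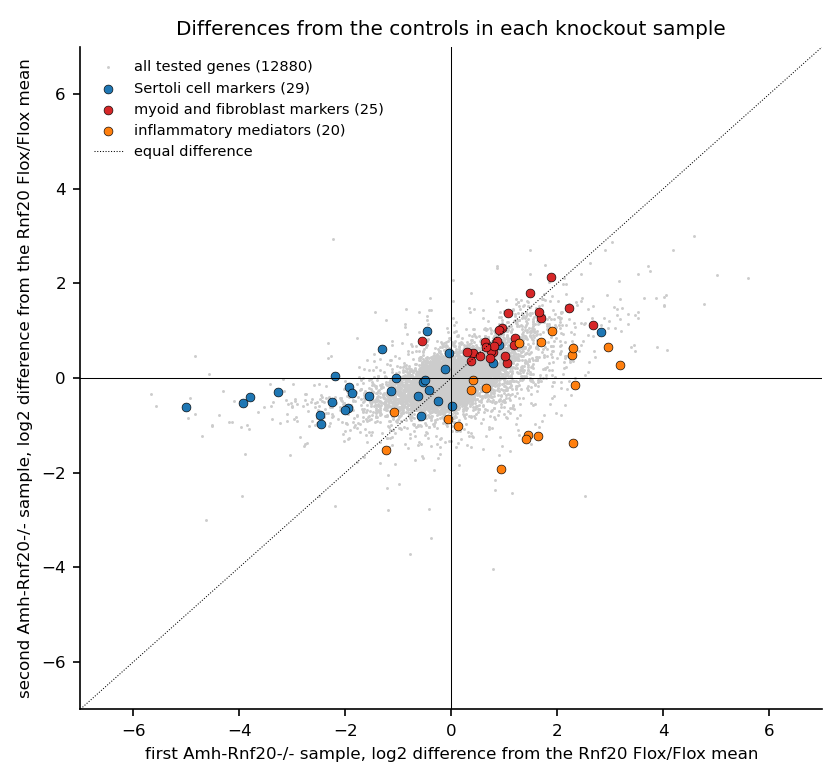
Log2 difference of each Amh-Rnf20-/- sample from the mean of the Rnf20 Flox/Flox samples, for the 12880 genes tested, with the first sample on the x axis and the second on the y axis, both on TMM-scaled CPM + 0.1. Both axes use the same controls, so part of the slope is shared noise. Myoid and fibroblast markers (red) lie mostly in the upper right, Sertoli cell markers (blue) mostly to the left of 0, and genes of inflammatory mediators (orange) lie mostly to the right of 0 and on both sides of 0 on the y axis.

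Genes of contractile smooth muscle, which mark peritubular myoid cells, were higher in both Amh-Rnf20-/- samples to a similar extent. Of 12 listed markers, 11 were tested, and in all 11 both Amh-Rnf20-/- samples were above both controls, with an unadjusted p-value under 0.05 by edgeR. Over all genes 24.8% were above both controls and 8.52% were higher at that p-value. The median log2 fold change of the 11 was 0.81, against 0.00 over all genes. Their median difference from the controls was 0.87 in the first sample and 0.79 in the second. Acta2, which encodes smooth muscle actin, had an FPKM of 1097 and 1058 in the controls against 2134 and 2091 in the Amh-Rnf20-/- pair. The 2 pairs were tight and about 1 log2 unit apart, with a log2 fold change of 1.01 (SE 0.08, adjusted p = 0.119 by edgeR). Myh11, the smooth muscle myosin heavy chain gene, had an FPKM of 14.0 and 10.9 in the controls against 32.0 and 41.3 in the Amh-Rnf20-/- pair, with the second sample the higher. Tagln, encoding transgelin, had an FPKM of 799 and 753 against 1159.9 and 1286. Lmod1, encoding leiomodin of muscle thin filaments, had an FPKM of 9.42 and 6.21 against 23.5 and 19.6. In each of these genes the groups were apart, and adjusted p-values over the 11 markers ran from 0.119 to 0.245 by edgeR. DESeq2 called 8 of the 11 higher, beside 3.07% of all genes. They were Acta2, Actg2, Myh11, Tagln, Cnn1, Lmod1, Tpm2 and Mylk. Des, encoding the intermediate filament desmin, was the exception in its evenness, with an FPKM of 11.2 and 8.61 in the controls, 60.9 in the first Amh-Rnf20-/- sample and 20.9 in the second.

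Fibroblast and matrix genes were also higher in both Amh-Rnf20-/- samples, but more so in the first. Of 14 tested fibroblast markers, 13 were higher in both Amh-Rnf20-/- samples (24.8% of all genes) with an unadjusted p-value under 0.05 by edgeR (8.52% of all genes), and Thy1 overlapped. The median log2 fold change was 0.76, and the median difference from the controls was 1.03 in the first sample and 0.64 in the second. In these samples 8 and 4 markers were more than 2-fold higher, beside 692 and 239 of the 12880 genes tested. Dcn, encoding the collagen-binding proteoglycan decorin, had an FPKM of 35.2 and 33.8 in the controls against 157 and 94.7 in the Amh-Rnf20-/- pair, a log2 fold change of 1.91 (SE 0.27, adjusted p = 0.132 by edgeR). Tcf21, a transcription factor of testicular stromal progenitors, had an FPKM of 13.2 and 17.8 against 54.7 and 66.7, so that it was highest in the second sample. Pdgfra, a receptor gene that marks mesenchymal cells, had an FPKM of 18.5 and 16.6 against 38.7 and 28.2. Among 29 interstitial matrix genes, 23 were higher and none was lower in both Amh-Rnf20-/- samples, beside 24.8% and 26.2% of all genes. The median log2 fold change of the 29 was 0.67. The median difference was 0.78 in the first sample and 0.54 in the second. More than 2-fold higher were 11 matrix genes in the first and 1 in the second, beside the same counts of all genes. Fn1, encoding fibronectin, showed the smallest p-value of that list. Its FPKM was 161 and 158 in the controls against 285 and 265 in the Amh-Rnf20-/- pair, a log2 fold change of 0.82 (SE 0.08, adjusted p = 0.119 by edgeR). Col1a1, a chain of type I collagen, had an FPKM of 1011 and 1046 against 1718 and 1464. Sparc, encoding osteonectin and the most abundant gene of the list, did not separate the groups, with an FPKM of 1940.0 and 1917 against 1837 and 2127. DESeq2 called 10 of the 14 fibroblast markers and 19 of the 29 matrix genes, all higher, beside 3.07% of all genes.

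The basement membrane, which Sertoli and myoid cells build together, was less uniform. Of 22 genes, 14 were higher and 3 were lower in both Amh-Rnf20-/- samples, beside 24.8% and 26.2% of all genes. The median log2 fold change of the 22 was 0.25. Type IV collagen chains went in different directions. Col4a4 had an FPKM of 4.01 and 3.84 in the controls against 9.00 and 11.5 in the Amh-Rnf20-/- pair, with a log2 fold change of 1.41 (SE 0.14, adjusted p = 0.119 by edgeR). Col4a5 had an FPKM of 43.7 and 44.4 against 30.7 and 31.2, with a log2 fold change of −0.47 (SE 0.07, adjusted p = 0.141 by edgeR). Both differences were of similar size in the 2 Amh-Rnf20-/- samples, and DESeq2 called both. Col18a1, whose protein releases endostatin, was graded, with an FPKM of 83.4 and 75.6 in the controls, 18.9 in the first Amh-Rnf20-/- sample and 48.6 in the second. Of 22 tested genes of the TGF-beta and YAP pathways, 12 were higher and 5 lower in both, beside the same shares of all genes, with a median of 0.12. The targets of BMP signalling within that list stood highest. Id1, an inhibitor of helix-loop-helix factors, had an FPKM of 27.9 and 27.0 against 81.5 and 47.7, and Id3 of 37.6 and 39.4 against 109.8 and 74.6. The ligand gene Tgfb2 was lower, with an FPKM of 16.7 and 16.6 against 8.73 and 11.03 and a log2 fold change of −0.70 (SE 0.13, adjusted p = 0.165 by edgeR).

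Single genes with the widest gaps between the groups were then listed among those with a mean FPKM of at least 5 in the higher group. Vegfd, encoding a growth factor for lymphatic vessels, had the smallest p-value of all genes. Its FPKM was 3.88 and 3.29 in the controls against 30.7 and 28.3 in the Amh-Rnf20-/- pair, a log2 fold change of 2.97 (SE 0.13, adjusted p = 0.0961 by edgeR), and the nearest samples of the groups were 7.01-fold apart. Pdlim3, encoding an actinin-binding muscle protein, had an FPKM of 10.5 and 11.5 against 48.3 and 42.9, and Casq2, encoding a calcium-binding protein of muscle, of 5.94 and 6.53 against 19.1 and 17.7. The other genes among the 10 smallest p-values were Itga8, Serping1, Egflam, Acta2, C4b and Igfbp4, all higher, and Slc38a1, a glutamine transporter gene, which was lower with an FPKM of 15.4 and 17.1 against 7.06 and 7.48. Itga8 encodes an integrin chain of mesenchyme, Serping1 the inhibitor of complement C1 and C4b a complement component. All 10 were of nearly equal size in the 2 Amh-Rnf20-/- samples, which is also what a small p-value asks for when groups hold 2 samples. Other genes with wide gaps were graded. Cd34, a surface protein of stromal and vascular progenitors, had an FPKM of 3.25 and 3.30 in the controls, 43.6 in the first Amh-Rnf20-/- sample and 15.6 in the second. Tubb4a, a tubulin gene, had an FPKM of 1.09 and 1.22 against 21.3 and 7.63. Gpm6a, a membrane glycoprotein gene, went from an FPKM of 0.15 and 0.19 in the controls to 9.72 in the first Amh-Rnf20-/- sample and 0.84 in the second.

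Among genes that were lower, Wfdc18, a member of a family of small secreted protease inhibitors, had the widest gap. Its FPKM was 19.1 and 20.5 in the controls against 0.42 and 2.14 in the Amh-Rnf20-/- pair, a log2 fold change of −3.90 (SE 0.58, adjusted p = 0.139 by edgeR). Cldn6, encoding a claudin of embryonic epithelia, had an FPKM of 27.6 and 21.0 against 6.74 and 6.87, and Cidea, encoding a lipid droplet protein, of 44.5 and 40.1 against 2.63 and 13.6. Cldn6 was equally low in the 2 Amh-Rnf20-/- samples, and Cidea was graded. Atp1b1, the beta chain of the sodium pump and the most abundant gene in this group, had an FPKM of 200.5 and 205 against 63.8 and 94.1, a log2 fold change of −1.32 (SE 0.20, adjusted p = 0.141 by edgeR). Rdh10, which makes retinaldehyde from vitamin A, had an FPKM of 18.5 and 17.8 against 5.99 and 8.05. Abcg1, a cholesterol exporter gene, had an FPKM of 8.23 and 7.44 against 3.18 and 2.61. Eif3j1 and Rnaset2b were also in this group, and Ugt1a6b and Rps27rt among the higher genes, but each has a near-identical copy. The FPKM of Eif3j1 was 6.30 and 10.1 against 0.45 and 1.35, while that of its copy Eif3j2 was 45.4 and 45.0 against 47.4 and 51.3. The division of reads between such copies is uncertain.

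For 3 of the genes on which these comparisons turn, the 250 bases upstream of the annotated start are shown as context, from RefSeq on GRCm38.p6, 5′ to 3′ on the gene's strand, with CCAAT and TATAAA in either orientation in capitals. They are Cldn11, the tight junction gene of the study, which the 2 Amh-Rnf20-/- samples put at very different levels, and Vegfd and Acta2, which they put at nearly equal levels. The Cldn11 window is chr3:31149670-31149919 on the plus strand, that of Vegfd is chrX:164373272-164373521 on the plus strand, and that of Acta2 is chr19:34255374-34255623 on the minus strand.
Cldn11: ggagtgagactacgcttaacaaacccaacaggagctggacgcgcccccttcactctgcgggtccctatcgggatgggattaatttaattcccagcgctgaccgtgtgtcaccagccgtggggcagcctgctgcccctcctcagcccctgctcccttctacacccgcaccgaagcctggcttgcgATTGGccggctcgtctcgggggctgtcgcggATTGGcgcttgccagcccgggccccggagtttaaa
Vegfd: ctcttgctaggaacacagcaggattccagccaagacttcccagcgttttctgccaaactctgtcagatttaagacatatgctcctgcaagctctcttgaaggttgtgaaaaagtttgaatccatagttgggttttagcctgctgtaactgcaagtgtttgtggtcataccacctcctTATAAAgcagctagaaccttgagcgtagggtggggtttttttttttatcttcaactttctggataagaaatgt
Acta2: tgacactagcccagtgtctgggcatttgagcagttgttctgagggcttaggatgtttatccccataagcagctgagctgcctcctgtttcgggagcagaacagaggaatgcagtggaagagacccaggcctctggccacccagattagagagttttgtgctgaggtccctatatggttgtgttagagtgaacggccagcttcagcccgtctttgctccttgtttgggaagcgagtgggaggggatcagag
The Cldn11 window held CCAAT 2 times, both on the opposite strand and close to the start, the Vegfd window held 1 TATAAA, and the Acta2 window held neither. Of the 10290 tested genes with a window of this length, 41.3% held CCAAT and 8.03% held TATAAA. In the 29 genes with a window among the 38 that were more than 2-fold lower without overlap, 14 held CCAAT and 6 held TATAAA, and in the 89 among the 131 that were higher these numbers were 29 and 10. A match is a match of letters only.

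Sertoli cell genes were lower in a graded way, far more in the first Amh-Rnf20-/- sample than in the second. Of 30 listed markers, 29 were tested. In 19 both Amh-Rnf20-/- samples lay below both controls, in 3 above, and in 7 the groups overlapped. Over all genes 26.2% lay below and 24.8% above. The median difference of the 29 from the controls was −1.14 in the first sample and −0.29 in the second on the log2 scale. In the first sample 16 markers were more than 2-fold lower, against 0 in the second, beside 513 and 142 of the 12880 genes tested. The median log2 fold change was −0.64. At an unadjusted p-value under 0.05 by edgeR, 5 markers were lower and 1 higher, beside 6.99% and 8.52% of all genes. Adjusted p-values of the markers ran from 0.194 to 0.935 by edgeR. Sox9, the transcription factor that sets Sertoli cell fate, had an FPKM of 41.8 and 39.4 in the controls, 10.2 in the first Amh-Rnf20-/- sample and 25.7 in the second, a log2 fold change of −1.14 (SE 0.44, adjusted p = 0.329 by edgeR). Dmrt1, which maintains male fate after birth, had an FPKM of 31.7 and 32.0 against 8.12 and 27.2. The paper takes its protein as a marker of spermatogonia as well as Sertoli cells, and the 2 sources were not separated here. Inha, the inhibin alpha chain gene, had an FPKM of 211 and 189 against 33.9 and 113. Shbg, encoding a sex steroid binding globulin, had an FPKM of 14.1 and 13.8 against 0.42 and 8.24. In all 4 genes the second Amh-Rnf20-/- sample lay between the first and the controls. Wt1 was the marker with the smallest p-value. This transcription factor gene had an FPKM of 69.6 and 70.5 in the controls against 44.2 and 52.9 in the Amh-Rnf20-/- pair, a log2 fold change of −0.49 (SE 0.11, adjusted p = 0.194 by edgeR). Gata4 and Nr5a1, both transcription factors of Sertoli and other somatic gonadal cells, were little lower in the second sample. The FPKM of Gata4 was 129 and 129 in the controls, 87.1 in the first Amh-Rnf20-/- sample and 119.96 in the second. Ptgds, the prostaglandin D synthase gene, went the other way, with an FPKM of 15.8 and 12.0 against 94.9 and 26.6.

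Checked against its markers, the cell type of the label held in part in the controls. Sox9, Wt1, Gata4, Dmrt1, Inha, Cldn11 and Clu were well expressed, Clu, encoding the secreted chaperone clusterin, at an FPKM of 961 and 859. Amh had an FPKM of 6.41 and 5.56 in the controls against 3.87 and 3.33 in the Amh-Rnf20-/- pair. Fshr, the receptor gene for follicle-stimulating hormone, had an FPKM of 2.16 and 1.59 against 0.36 and 1.87, and Gata1 was under 0.5 in every sample. Acta2 and Col1a1, markers of myoid cells and fibroblasts, had an FPKM of 1097 and 1058 and of 1011 and 1046 in the controls, higher than any of the 30 Sertoli cell markers. The summed FPKM of the Sertoli cell markers was 2345 and 2124 in the controls, 1166 in the first Amh-Rnf20-/- sample and 1762 in the second. That of the myoid markers was 2803 and 2648 against 4499.9 and 4699, and that of the fibroblast markers 2409 and 2501 against 4304 and 3704. The sums moved in opposite directions between the genotypes, and the part of cell type in the results below was not tested. In bulk RNA, fewer cells of a type and less RNA per cell cannot be told apart.

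**Figure D2:**
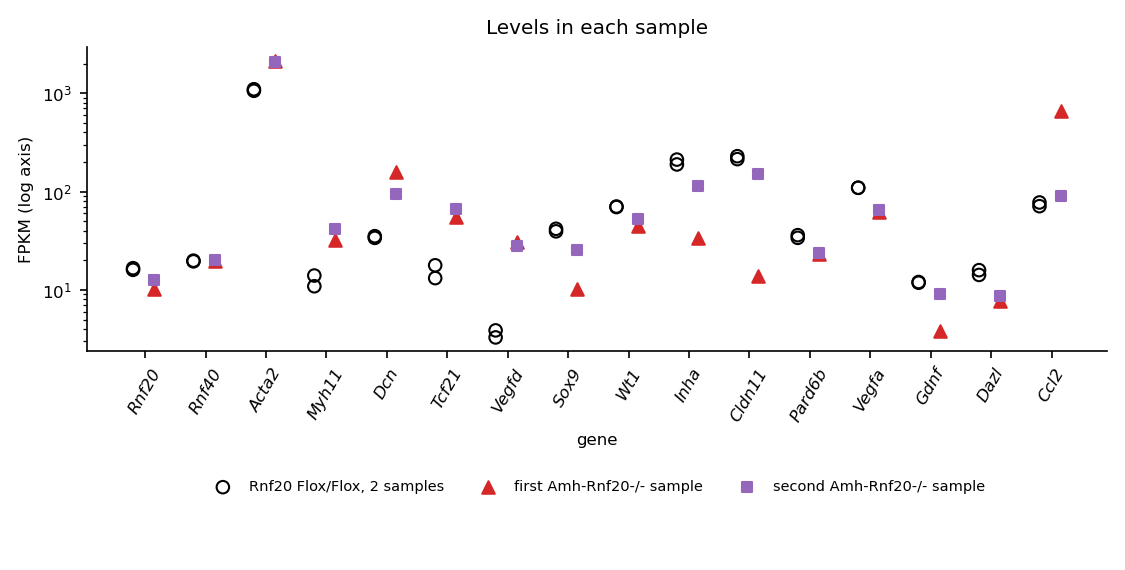
FPKM of 16 genes in each of the 4 samples on a log axis, with Rnf20 Flox/Flox samples as open circles and Amh-Rnf20-/- samples as filled symbols, a triangle for the first and a square for the second. Acta2 shows 2 tight pairs, at 1097 and 1058 against 2134 and 2091, while Sertoli cell genes are spread out by the first Amh-Rnf20-/- sample, Cldn11 at 14.0 against 150 in the second.

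Tight junction genes, the parts of the blood-testis barrier, held both patterns. Of 26 tested genes in a list of 32, 12 were lower and 2 were higher in both Amh-Rnf20-/- samples, beside 26.2% and 24.8% of all genes. At an unadjusted p-value under 0.05 by edgeR, 7 were lower, beside 6.99% of all genes, and none was higher, beside 8.52%. The median difference from the controls was −0.30 in the first sample and −0.35 in the second. In the first, 4 genes were more than 2-fold lower against 1 in the second, beside 513 and 142 of the 12880 genes tested. The summed FPKM of the list was 849 and 806 in the controls, 519 in the first sample and 631 in the second. Cldn11 on chromosome 3 had an FPKM of 229 and 214 in the controls, 14.0 in the first Amh-Rnf20-/- sample and 150 in the second, a log2 fold change of −1.40 (SE 1.04, adjusted p = 0.571 by edgeR). This 1 gene thus held a large part of the fall of the summed FPKM in the first sample, so the sum does not describe the list as a whole. Against both controls the log2 fold change of Cldn11 was −3.93 for the first sample alone and −0.52 for the second alone. Ocln, encoding the junction protein occludin, was graded in the same direction, with an FPKM of 5.85 and 5.64 against 0.96 and 3.76. Some genes of the list were lower to a similar extent in both samples. Pard6b, part of the apical polarity complex, had an FPKM of 33.9 and 36.1 in the controls against 23.3 and 23.8 in the Amh-Rnf20-/- pair, a log2 fold change of −0.53 (SE 0.08, adjusted p = 0.137 by edgeR). Prkci, the atypical protein kinase C of that complex, had an FPKM of 35.7 and 41.3 against 24.4 and 27.2. Magi3, a membrane scaffold gene, had an FPKM of 16.3 and 16.6 against 9.49 and 10.9. DESeq2 called these 3 genes and Cgnl1, encoding paracingulin, as lower, and no gene of the list as higher. Over all genes it called 1.53% lower and 3.07% higher. Tjp1, encoding a scaffold of the junction, lay on both sides of the controls, with an FPKM of 20.4 and 21.6 against 24.6 and 15.7. Jam3, another adhesion gene of the junction, had an FPKM of 38.2 and 34.5 against 35.7 and 36.2.

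Adherens junctions join Sertoli cells to each other and to germ cells through cadherins and catenins. Of 22 tested genes, 9 were lower and 5 higher in both Amh-Rnf20-/- samples, beside 26.2% and 24.8% of all genes, with a median log2 fold change of −0.07. Cdh2, encoding N-cadherin, had an FPKM of 116 and 118 in the controls against 101 and 89.0 in the Amh-Rnf20-/- pair, a log2 fold change of −0.26 (SE 0.10, adjusted p = 0.317 by edgeR). Ctnnd1, encoding p120 catenin, had the smallest p-value of the list, with an FPKM of 109 and 109 against 68.4 and 84.2, and DESeq2 called it lower. Ctnna2, an alpha catenin gene known from neurons, was graded, with an FPKM of 7.21 and 7.14 against 1.49 and 5.09. The genes of the main catenins did not separate the groups. Ctnna1 had an FPKM of 142 and 138 against 196 and 137, and Ctnnb1 of 185 and 182 against 222 and 164, so that both were higher in the first Amh-Rnf20-/- sample and slightly lower in the second. Cadm3, encoding an adhesion molecule of the nectin-like family, was higher, with an FPKM of 0.62 and 0.66 in the controls, 10.2 in the first Amh-Rnf20-/- sample and 2.10 in the second. Of 10 tested gap junction and desmosome genes, 4 were lower and 1 was higher in both samples, beside the same 26.2% and 24.8% of all genes. Gja1, encoding connexin 43, had an FPKM of 25.8 and 23.4 against 36.6 and 20.2.

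Genes of the factors with which Sertoli and peritubular cells feed the spermatogonial niche lay on both sides of the controls. Of 20 tested, 8 were lower and 6 were higher in both Amh-Rnf20-/- samples, beside 26.2% and 24.8% of all genes, and the median log2 fold change was −0.14. Gdnf, the main self-renewal factor of spermatogonial stem cells, had an FPKM of 11.8 and 12.0 in the controls, 3.83 in the first Amh-Rnf20-/- sample and 9.08 in the second, a log2 fold change of −0.85 (SE 0.39, adjusted p = 0.387 by edgeR). Dhh, the hedgehog ligand by which Sertoli cells act on Leydig and myoid cells, had an FPKM of 24.0 and 21.8 against 4.81 and 16.1. Kitl, encoding the ligand of the KIT receptor, had an FPKM of 29.1 and 28.7 against 28.4 and 18.7, lower in both samples on that scale, while the groups overlapped on scaled CPM (149 and 146 against 149.87 and 97.8). Vegfa and Lif were lower to an even extent. Vegfa, a growth factor of blood vessels, had an FPKM of 109 and 109.5 against 61.8 and 64.7, with a log2 fold change of −0.73 (SE 0.07, adjusted p = 0.119 by edgeR). Lif, a cytokine gene, had an FPKM of 22.8 and 22.8 against 10.4 and 13.6. On the other side, Fgf2, a mitogen of spermatogonial stem cells, had an FPKM of 7.00 and 5.61 against 12.6 and 13.5, a log2 fold change of 1.12 (SE 0.15, adjusted p = 0.132 by edgeR). Cxcl12, a chemokine that holds stem cells in place, had an FPKM of 93.9 and 99.8 against 230 and 166, and Csf1, the macrophage growth factor gene, of 80.9 and 77.6 against 246 and 130. Igf1 had an FPKM of 3.37 and 3.56 against 13.3 and 7.13, and Bmp4 of 4.18 and 5.22 against 13.8 and 8.70. DESeq2 called 6 of these genes higher, Fgf2, Cxcl12, Csf1, Wnt6, Bmp4 and Igf1, and Vegfa and Lif lower. Over all genes it called 3.07% higher and 1.53% lower. In the hormone list of 15 genes, Fstl3, encoding an activin-binding protein, had an FPKM of 187 and 176 against 75.1 and 122 and was the 1 gene that DESeq2 called. Inhbb and Inhba, the beta chain genes of inhibin and activin, overlapped between the groups, unlike Inha.

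Germ cell genes were detected at low levels in all samples, and most were lower in the Amh-Rnf20-/- pair. Of 22 tested genes of spermatogonia, 16 were lower and 1 was higher in both, beside 26.2% and 24.8% of all genes. The median log2 fold change of the 22 was −0.56, and their median difference from the controls was −0.79 in the first sample and −0.36 in the second. At an unadjusted p-value under 0.05 by edgeR, 7 were lower, beside 6.99% of all genes. Dazl, an RNA-binding protein gene of germ cells, had an FPKM of 14.2 and 15.9 in the controls against 7.69 and 8.67 in the Amh-Rnf20-/- pair, a log2 fold change of −0.83 (SE 0.12, adjusted p = 0.132 by edgeR), and it was the 1 gene of the list that DESeq2 called. Ddx4, a germ cell helicase gene, had an FPKM of 5.48 and 6.93 against 3.70 and 4.12. Stra8, which retinoic acid induces at the entry into differentiation and meiosis, had an FPKM of 18.8 and 23.0 against 10.3 and 15.3. Id4, a marker of stem spermatogonia that somatic cells also express, was the 1 gene higher in both samples, with an FPKM of 0.52 and 0.45 against 0.60 and 0.63. Of 11 tested meiotic genes, 8 were lower and none was higher in both, with a median of −0.56, though their levels were low. Sycp3, encoding a protein of the synaptonemal complex, had an FPKM of 3.63 and 5.81 against 2.89 and 2.75. The summed FPKM of the spermatogonial list was 252 and 249 in the controls against 169 and 177 in the Amh-Rnf20-/- pair.

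Markers of further cell types moved less evenly. Of all genes tested, 24.8% were higher and 26.2% were lower in both Amh-Rnf20-/- samples, the background for the counts of this paragraph. Of 8 tested Leydig cell genes, 4 were higher and 1 was lower in both Amh-Rnf20-/- samples, and the defining genes Cyp17a1 and Lhcgr were under 0.5 FPKM everywhere. Hsd3b1, a steroid dehydrogenase gene, had an FPKM of 19.1 and 21.9 in the controls against 58.4 and 37.0 in the Amh-Rnf20-/- pair, a log2 fold change of 1.26 (SE 0.25, adjusted p = 0.172 by edgeR). Cyp11a1, the first enzyme of steroid synthesis, had an FPKM of 101 and 106 against 197 and 136, while Star, the cholesterol carrier gene, overlapped with an FPKM of 19.0 and 16.7 against 21.1 and 14.96. Of 16 macrophage markers, 7 were tested. Both Amh-Rnf20-/- samples were higher than both controls in 3 of the 7 and lower in 0, with a median log2 fold change of 0.57. The summed FPKM of the 16 was 38.3 and 44.8 in the controls, 76.3 in the first Amh-Rnf20-/- sample and 42.5 in the second. Ptprc, which encodes the common leukocyte antigen, was at most 0.19. The summed FPKM of 14 endothelial markers was 78.3 and 79.4 against 111 and 90.6, with Vwf at 0.03 or less and Pecam1 at 1.41 or less. Of the 10 that were tested, 4 were higher and 2 were lower in both samples. Their log2 fold changes ran from −0.45 to 1.74, and DESeq2 called 1 of them higher. Erythroid markers were at most 0.20 FPKM in every sample. Of 9 tested markers of mesothelium and epithelium, 4 were higher and 3 were lower in both samples, with a median difference from the controls of 0.67 in the first and −0.27 in the second. Upk3b and Lrrn4, both of mesothelium, were among the higher, Upk3b with an FPKM of 0.58 and 0.65 against 8.04 and 2.06. Epcam, an epithelial adhesion gene, was lower with an FPKM of 7.65 and 7.45 against 3.77 and 4.41. Of 10 tested genes of the ovarian granulosa cell fate, 5 were higher and 3 were lower in both samples, with a median difference of 0.75 in the first and 0.04 in the second. Foxl2, its defining factor, was at most 0.18 FPKM in all samples, while Rspo1, a secreted activator of WNT signalling, had an FPKM of 0.88 and 0.70 in the controls, 7.06 in the first Amh-Rnf20-/- sample and 2.22 in the second.

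A large part of the distance of the first Amh-Rnf20-/- sample was its own. Of 20 tested inflammatory mediators, 12 were more than 2-fold above the controls in the first sample and 0 in the second, while 7 were more than 2-fold below the controls in the second and 2 in the first. Of the 12880 genes tested, 692 were more than 2-fold above in the first sample and 239 in the second. More than 2-fold below were 513 in the first and 142 in the second. The median difference of the 20 mediators was 1.44 in the first sample and −0.23 in the second. Ccl2, a chemokine that draws monocytes, had an FPKM of 71.0 and 77.5 in the controls, 654 in the first Amh-Rnf20-/- sample and 89.2 in the second, a log2 fold change of 2.38 (SE 0.96, adjusted p = 0.343 by edgeR). Cxcl1, a chemokine for neutrophils, had an FPKM of 76.5 and 70.5 against 220.1 and 30.8, so that it lay above the controls in one sample and below them in the other. Vcam1, an adhesion gene for leukocytes, had an FPKM of 5.63 and 5.35 against 41.8 and 8.46. Tlr2, a receptor gene for bacterial lipoproteins, had an FPKM of 3.10 and 3.37 against 14.9 and 3.04. Icam1 was the more even of these genes and was called by DESeq2, with an FPKM of 8.26 and 7.46 against 28.7 and 15.3. Il33, an alarmin gene, was lower in both, with an FPKM of 1.42 and 1.51 against 0.58 and 0.47. Of 24 tested interferon response genes, 9 were more than 2-fold above the controls in the first sample and 2 in the second, with medians of 0.66 and −0.17. Cxcl10 had an FPKM of 0.34 and 1.52 in the controls, 13.6 in the first Amh-Rnf20-/- sample and 2.34 in the second. The controls were themselves apart in this list, by a median of −0.38 between the first and the second. Genes of the p53 response had medians of 0.41 and −0.12, Cdkn1a, the cell cycle inhibitor p21, with an FPKM of 78.7 and 79.8 against 107 and 67.6. Other genes low in the first sample and near the controls in the second included Wfdc10, at an FPKM of 11.2 and 9.32 in the controls, 0.00 in the first sample and 8.45 in the second, and Cst12, a cystatin gene, at 121 and 96.9 against 10.3 and 87.9.

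Cell cycle genes separated the Amh-Rnf20-/- samples from each other and not from the controls. Of 33 genes, 30 were below the control mean in the first sample and 5 in the second, beside 6618 and 6474 of the 12880 genes tested. The medians of the 33 were −0.33 and 0.16. In 29 of the 33 the groups overlapped, beside 6314 of the 12880 genes tested. Mki67, encoding the proliferation marker Ki-67, had an FPKM of 21.6 and 20.3 in the controls, 17.3 in the first Amh-Rnf20-/- sample and 32.0 in the second, and Pcna, the replication clamp gene, of 180 and 185 against 141 and 199. Both were lowest in the first sample and highest in the second. Among genes that only moved away from the controls in the second sample by the rule used, H2ac7, a histone H2A gene, had an FPKM of 21.5 and 23.9 in the controls, 22.2 in the first Amh-Rnf20-/- sample and 70.3 in the second. Histone genes of this cluster are near-identical to each other and mostly lack poly(A) tails, so the value is uncertain. Krt8, an epithelial keratin gene, had an FPKM of 35.96 and 23.1 against 29.9 and 13.1, and Ptgs2, a prostaglandin synthase gene, of 16.2 and 13.2 against 13.6 and 7.80.

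Metabolic genes differed by less. The background for the counts here is that 26.2% of all genes tested were lower and 24.8% higher in both Amh-Rnf20-/- samples. Sertoli cells break down glucose to lactate for germ cells, and of 26 genes of glucose uptake, glycolysis and lactate transport, 14 were lower and 6 were higher in both Amh-Rnf20-/- samples, with a median of −0.14. Hk2, a hexokinase gene, had an FPKM of 75.7 and 78.6 in the controls against 41.99 and 54.3 in the Amh-Rnf20-/- pair, a log2 fold change of −0.62 (SE 0.14, adjusted p = 0.188 by edgeR), and was the 1 gene of the list that DESeq2 called. Ldhb, a lactate dehydrogenase gene, had an FPKM of 299 and 296 against 129 and 219.75, and Slc16a3, a lactate exporter gene, of 114 and 112 against 90.9 and 103. Of 19 tested retinoid genes, 9 were lower and 5 were higher in both samples. Aldh1a2, which makes retinoic acid, had an FPKM of 44.0 and 45.2 against 27.6 and 33.8, and Stra6, the receptor gene for retinol uptake, of 42.9 and 36.8 against 7.31 and 24.9. Of 24 genes of cholesterol synthesis and uptake, 15 were higher and none was lower in both, by a small amount, with a median of 0.20. Mvk, encoding mevalonate kinase, was the highest, with an FPKM of 51.3 and 55.0 against 88.5 and 84.3 and a log2 fold change of 0.74 (SE 0.08, adjusted p = 0.119 by edgeR). Among 15 reference genes the median was −0.01. Hprt had an FPKM of 88.5 and 86.9 against 91.3 and 81.3, while Gapdh was lower in the first Amh-Rnf20-/- sample, at 4151 and 4265 against 2803 and 4069, and Actb was higher in both, at 1709 and 1730 against 2127 and 2231.

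**Figure D3:**
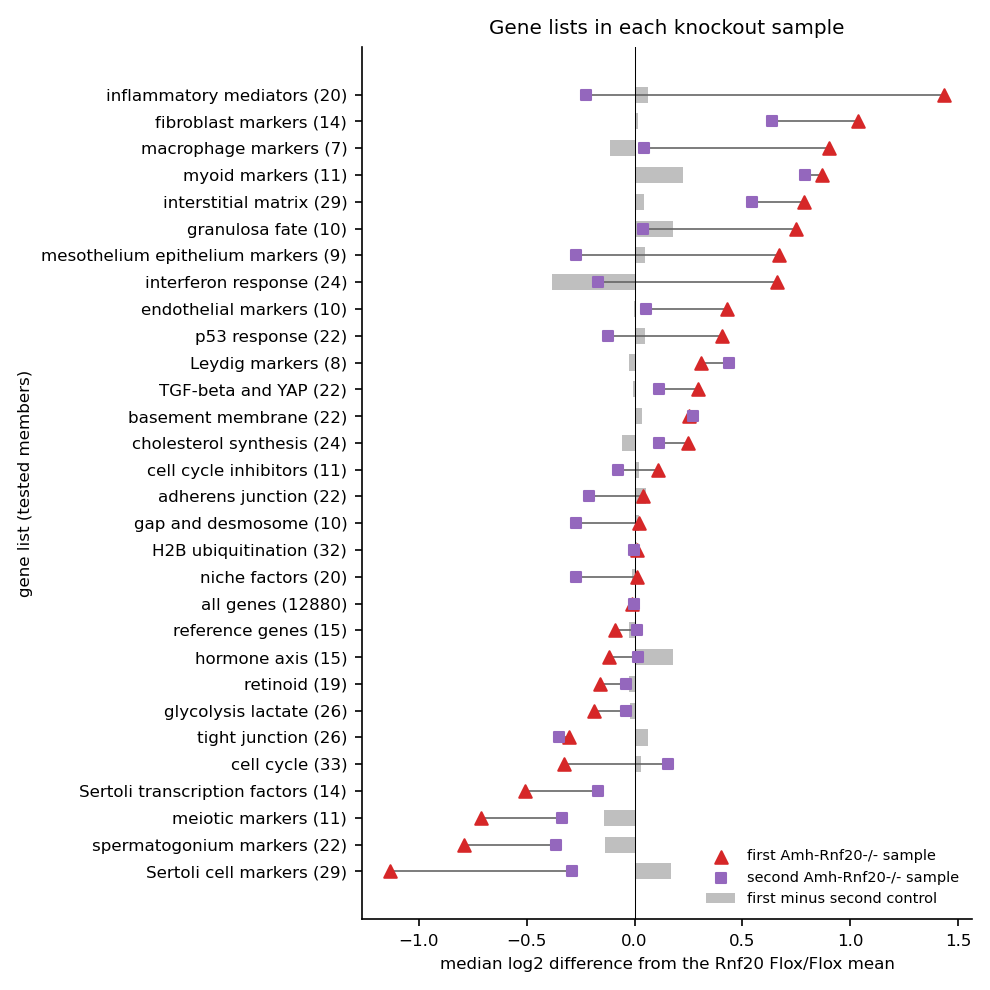
Median log2 difference from the Rnf20 Flox/Flox mean of the tested members of each gene list, and of all genes tested, for the first (triangle) and the second (square) Amh-Rnf20-/- sample. Erythroid and adipocyte markers, with few or no tested members, are left out. The number of tested members stands beside each name, and the median difference between the controls is a grey bar. Myoid markers sit at 0.87 and 0.79, Sertoli cell markers at −1.14 and −0.29, and inflammatory mediators at 1.44 and −0.23.

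Since ubiquitinated H2B lies along gene bodies, the differences were also set out by gene length, taken from RefSeq on GRCm38.p6 for 12848 of the genes tested (99.8%), in 5 bins of equal size. The median log2 fold change stayed between −0.02 and 0.01 in all 5. The 2 Amh-Rnf20-/- samples differed in the sign of the trend. From the shortest bin, up to 7.88 kb, to the longest, from 68.3 kb, the median difference from the controls went from −0.04 to 0.06 in the first sample and from 0.05 to −0.08 in the second, and the difference between the controls went from −0.01 to 0.01. The share of genes that were lower in both samples was 20.3% in the shortest bin and 30.4% in the longest, while the share that were higher was 24.6% and 25.0%. These shares describe this set of samples, and genes are not replicates. By level, the share lower in both was 31.7% in the second of 5 bins from the lowest mean FPKM and 19.96% in the highest bin, where the share higher in both was 33.5%. The parts of gene length and level were not separated.

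**Figure D4:**
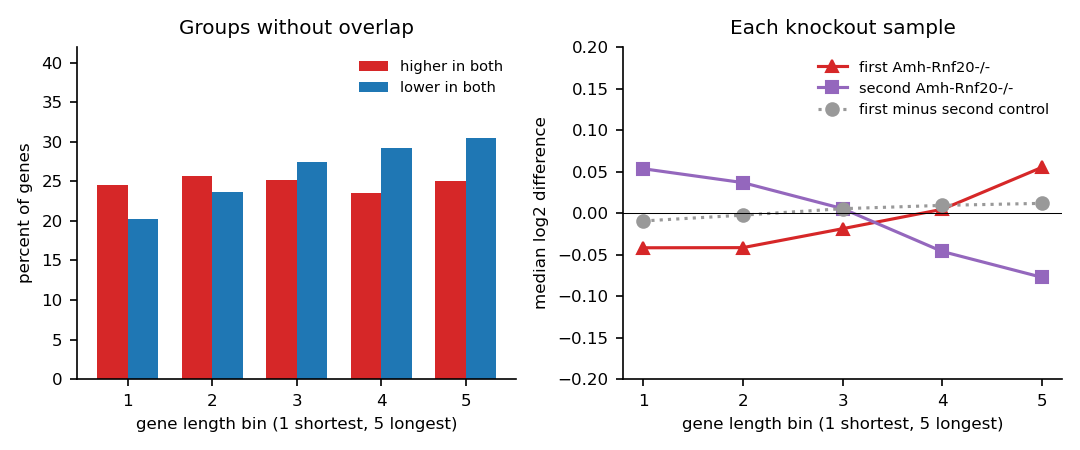
Tested genes in 5 bins of equal size by gene length, from shortest (1) to longest (5). Left, percent of genes in which both Amh-Rnf20-/- samples were higher (red) or lower (blue) than both Rnf20 Flox/Flox samples, with lower genes going from 20.3% to 30.4%. Right, median log2 difference from the control mean in the first (triangle) and second (square) Amh-Rnf20-/- sample, with trends of opposite sign.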

How the data were processed

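RNA of the cultured cells was enriched with oligo(dT) and sequenced on the BGISEQ platform. Per the study's methods, the authors used HISAT for mapping to GRCm38.p6, Bowtie2 for mapping to reference genes, and RSEM for FPKM. Versions of these tools, and whether strand was used, are not given in the sources used here, so reads of overlapping and antisense genes may not be separated. The deposited estimated counts are not normalized, and 11.2% to 11.6% of them per sample were not whole numbers. The deposited FPKM values are relative to gene length and to the library's total. The deposited TPM values, scaled in the same way to a fixed total, were used in alternatives only.

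Estimated counts were rounded, scaled by TMM (factors 0.984 to 1.02) and tested with edgeR 4.0.16 (glmQLFit and glmQLFTest, limma 3.58.1, R 4.3.3) over genes that reached 0.5 FPKM in 2 or more samples. Standard errors were derived from the fold change and the root of its F statistic. Overlap, gaps and differences of single samples used log2 of scaled CPM + 0.1. DESeq2 1.42.0, limma on log2(FPKM + 0.1), log2(FPKM + 1) and log2(TPM + 0.1), other scalings and filters, a replicate block and each sample left out were alternatives, of which TPM and the gaps on FPKM and TPM were added after seeing the data. In counts simulated for this comparison over 12880 genes, with 100 genes changed by a log2 fold of 1 and 100 by 2, edgeR called 59% and 97% of them, with 14 false calls. The simulated samples of a group had the same means and varied in each gene by the dispersion estimated from the 4 real samples. No difference shared by many genes of 1 sample was simulated, unlike in the Amh-Rnf20-/- samples. Summaries and figures used Python 3.11.15, numpy 2.4.6, pandas 2.3.3 and matplotlib 3.10.9. With 2 samples per group, p-values set the difference between the groups against the spread between these samples, moderated over genes. That spread may be technical.

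The members, gene lists and named genes were chosen with earlier results of these data known. Named genes are the genes of the study (Rnf20, Rnf40, Cldn11, Sox9, Dmrt1, catenins and Cdh2), those with the widest gaps at a mean FPKM of at least 5, those with the 10 smallest p-values, those apart from the controls in 1 Amh-Rnf20-/- sample and near them in the other, and, from each list, the most abundant member, those with the smallest p-values and defining markers near 0. Not every such gene is printed, and Abcg1, Actb, Cyp11a1, Epcam and others outside the rule were picked for their role after their values were seen. Gene positions, lengths and sequences come from RefSeq on GRCm38.p6. The 6 adult testis samples of the series were not used here.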

Additional observations from a re-analysis of the deposited data

How the results depend on the processing

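With edgeR and limma no gene passed an adjusted p-value of 0.05 under the replicate block, other scalings or filters, FPKM or TPM, and the smallest adjusted p-value was between 0.0936 and 0.270. DESeq2 called 581 genes at 0.05 and 126 past both thresholds of the study (absolute log2 fold change over 1, adjusted p-value under 0.001). Leaving out 1 sample moved these counts between 0 and 5136 and between 0 and 650. They stayed at 0 without either Rnf20 Flox/Flox sample, reached 2757 and 61 without the first Amh-Rnf20-/- sample, and 5136 and 650 without the second. The counts of genes more than 2-fold apart ranged from 158 to 542 higher and from 66 to 442 lower over the same omissions, with fewer samples to separate, and were 236 and 78 without the filter on low values.

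Same-numbered samples did not deviate together (r = 0.038 over 12880 genes), so the replicate numbers were not taken as pairs. With the number as a block, 1789 genes had an unadjusted p-value under 0.05 in place of 1997, Rnf20 had a log2 fold change of −0.49, and the tight junction median was −0.38 in place of −0.33.

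The log2 fold change of Rnf20 ranged from −0.64 to −0.35. By edgeR it was −0.35 without the first and −0.64 without the second Amh-Rnf20-/- sample. Each of these fits set 1 Amh-Rnf20-/- sample against both controls. Medians ranged from −1.14 to −0.30 for Sertoli cell markers, from 0.73 to 1.05 for myoid markers, from 0.64 to 1.04 for fibroblast markers, from −0.37 to −0.22 for tight junction genes and from −0.81 to −0.37 for spermatogonial genes as samples were left out. The tight junction median was −0.29 without the filter, −0.44 by limma on log2(FPKM + 0.1) and −0.43 on log2(TPM + 0.1).

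Of 135 named genes, 19 changed sign under some alternative. When 1 sample was left out, the log2 fold change ranged from −0.20 to 0.49 for Cdkn1a, from −0.0281 to 0.54 for Ctnna1, from −0.12 to 0.34 for Ctnnb1, from −1.23 to 1.63 for Cxcl1, from −2.34 to 0.0345 for Fshr, from −0.25 to 0.62 for Gja1, from −0.0799 to 0.11 for Hprt, from −0.12 to 0.18 for Inhbb, from −0.0550 to 0.105 for Jam3, from −0.59 to 0.0204 for Kitl, from −1.15 to 0.0632 for Krt8, from −0.22 to 0.65 for Mki67, from −0.33 to 0.16 for Pcna, from −0.0288 to 0.18 for Sparc, from −0.22 to 0.28 for Star, from −0.57 to 0.79 for Thy1, from −0.39 to 0.28 for Tjp1, from −0.0565 to 2.24 for Tlr2 and from −0.00201 to 0.0568 for Ube2a. Total-count scaling gave −0.0221 for Hprt, −0.000282 for Inhbb, −0.0159 for Jam3 and −0.0110 for Ube2a. Limma on log2(FPKM + 0.1) and on log2(FPKM + 1) gave −0.0254 and −0.0251 for Hprt, −0.00948 and −0.00906 for Inhbb, −0.0145 and −0.0142 for Jam3, −0.00556 and −0.00447 for Star, and −0.0115 and −0.0111 for Ube2a, and on log2(TPM + 0.1) limma gave −0.0110 for Hprt and −0.000115 for Jam3. The cause was not tested. Levels under about 1 FPKM rest on few fragments.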

Other observations

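Among 14 tested transcription factors of Sertoli cells and their progenitors, 8 were lower and 2 were higher in both Amh-Rnf20-/- samples, beside 26.2% and 24.8% of all genes. The median log2 fold change of the 14 was −0.27. The 2 higher genes were Tcf21 and Lhx9, the latter a factor of the early gonad, with an FPKM of 7.71 and 8.83 in the controls, 16.1 in the first Amh-Rnf20-/- sample and 9.02 in the second. Etv5, a target of fibroblast growth factor signalling in Sertoli cells, had an FPKM of 13.0 and 13.0 against 9.01 and 11.6. Of 11 cell cycle inhibitors none was higher and 3 were lower in both samples, beside 24.8% and 26.2% of all genes. Among the lower was Rbl1, a relative of the retinoblastoma gene, with an FPKM of 9.76 and 8.53 against 6.31 and 7.34. Of 6 adipocyte markers only Fabp4 and Pparg were tested, and they lay on opposite sides, Fabp4 with an FPKM of 11.4 and 7.48 against 27.3 and 14.7 and Pparg of 2.11 and 2.79 against 1.03 and 1.59.

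By chromosome, the median log2 fold change of the autosomes lay between −0.03 and 0.02. The median over 504 genes of the X chromosome was −0.06. Of them 31.2% were lower and 21.0% higher in both Amh-Rnf20-/- samples, beside 26.2% and 24.8% of all genes. The 9 tested genes of the Y chromosome had a median of −0.41, with differences from the controls of −0.37 in the first sample and −0.27 in the second at the median. Of these few genes 33.3% were lower and 0% higher in both, beside the same shares of all genes.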
